A study of Homo sapiens with 2 samples.

Results

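Simple keratins and desmosome genes were examined as a set of 10 genes, out of 19775 genes that the array reads with at least 1 probe set assigned to them alone. The set holds the keratins KRT7, KRT8, KRT18 and KRT19 and the desmosome genes DSG2, DSC2, DSP, PKP2, PKP4 and JUP. Its members were chosen by their measured difference in this same contrast, in which keratins and DSG2 were much lower in SB-OG, so their differences are given as a description, without any test. All 10 genes were represented, by 23 probe sets assigned to a single member each.

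The cells were outgrowths of embryoid bodies, floating aggregates of differentiating cells, made from the human embryonic stem cell line HUES9 at passage 32. In SB-OG, SB-431542, a small molecule that blocks the receptor kinases through which TGF-β, activin and nodal signal, was present at 10 µM in the embryoid bodies and at 1 µM after plating. In control-OG, the solvent DMSO was present at 0.01%. Both were plated at day 10 on fibronectin in chemically defined medium and taken at outgrowth passage 5, when 3 samples per condition were mixed and read on 1 array. The comparison therefore concerns a single cell line with pooled samples and no replicate, and no value below has a replicate error or a p-value. The question it addresses is how blocking TGF-β type signalling bears on mesodermal differentiation of these cells.

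Keratins are the intermediate filament proteins of epithelia. A type I chain pairs with a type II chain, and KRT8 (type II) with KRT18 (type I) is the first pair made in the embryo and the typical pair of simple, single-layered epithelia, where KRT7 and KRT19 are added. Desmosomes are the junctions that anchor these filaments at cell contacts. Their cadherins, desmogleins and desmocollins, reach across to the neighbouring cell, plakoglobin (JUP) and plakophilins bind the cadherin tails inside, and desmoplakin (DSP) ties the plaque to the filaments. Heart muscle also uses DSG2, DSC2, DSP, PKP2 and JUP, where the plaque holds desmin instead of keratin.

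Intensities are linear array units, and the brightest probe set of a gene, by mean log2 over both arrays, represents it. The background level, read from probe sets of tissue-specific gene families such as olfactory receptors, was 27.6 on SB-OG and 32.6 on control-OG. Values under it were raised to it before a difference was taken, so a fold with only 1 side above background is a lower bound, written "at least". Every difference is log2 of SB-OG minus log2 of control-OG. As a technical spread, the SD of that difference between probe sets of the same gene was 0.45, over 4930 genes with at least 2 probe sets measured on both arrays. Intensities of different probe sets cannot be compared with each other, so only differences are ranked between genes.

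Of the 10 members, 7 were lower in SB-OG by 2-fold or more, namely KRT8, KRT18, KRT19, DSG2, DSC2, DSP and PKP2. PKP4 was at least 2-fold higher, and KRT7 and JUP lay within 2-fold. Of the 12499 genes that exceeded background on either array, 13.0% were lower and 12.4% higher by 2-fold or more. With the arrays scaled on the hybridisation controls, transcripts added to every sample before hybridisation, the member counts were again 7 and 1, beside 7.25% of genes lower and 24.4% higher. The same 7 members were at least 4-fold lower, as were 4.22% of all genes. The median difference over the members was -3.61, beside -0.02 over all genes. Because the members were picked for low values in this same contrast, these shares support nothing about the set. The array cannot tell fewer keratin-bearing cells from less keratin RNA per cell.

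**Figure D1:**
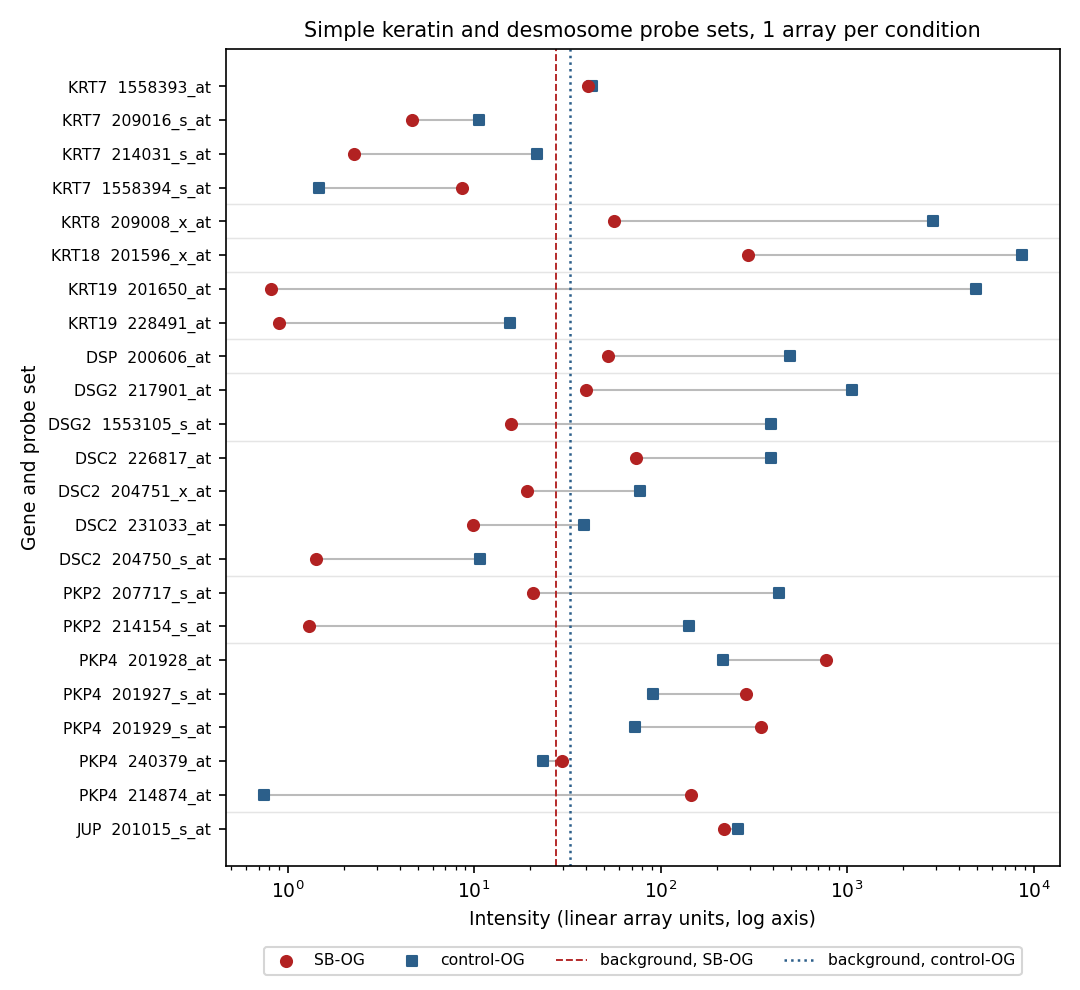
Intensity of every probe set of the 10 genes on the SB-OG array (circles) and the control-OG array (squares), on a log axis, with the background level of each array as a vertical line. SB-OG lies left of control-OG for KRT8, KRT18, KRT19, DSG2, DSC2, DSP and PKP2, right of it for all 5 probe sets of PKP4, and close to it for JUP and the brightest KRT7 probe set.

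KRT8 had an intensity of 56.5 on SB-OG and 2895 on control-OG, a 51.3-fold lower value (log2 difference -5.68). KRT18, its partner chain, had 294 on SB-OG and 8655 on control-OG and was 29.5-fold lower (-4.88). Both partners thus kept a signal above background on SB-OG, at 1.95% of the control-OG value for KRT8 and 3.39% for KRT18, although KRT8 falls under the SB-OG background when that is set at percentile 99 (77.3). The 2 differences lay 0.80 apart. The SD of 0.45 between probe sets of a gene is that of 1 difference, and a gap between 2 differences spreads more widely. The gap is therefore not read as a difference between the partners. Each of these keratins had a single probe set, named in the platform's scheme as a kind that can also bind related transcripts, and processed pseudogenes of both are numerous. The part of either signal that came from such copies is unknown.

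KRT19, a type I keratin that lacks most of the tail domain, had 0.813 on SB-OG and 4918 on control-OG. It was therefore under background on SB-OG and bright on control-OG, at least 178-fold lower, and no gene above background had a more negative difference. Its other probe set was under background on both arrays, at 0.895 on SB-OG and 15.7 on control-OG. KRT7, a type II keratin of ducts and other simple epithelia, did not share this pattern. Its brightest probe set stood just above background, with 41.1 on SB-OG and 42.9 on control-OG (-0.06), and its other 3 probe sets were under background on both arrays. A lower signal on SB-OG was thus seen for 3 of the 4 keratins, while KRT7 was near background on both arrays.

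The desmosomal cadherins were both lower. DSG2, the desmoglein found in simple epithelia and heart, had 39.8 on SB-OG and 1063 on control-OG, a 26.7-fold lower value (-4.74). Its other probe set had 15.7 on SB-OG and 392 on control-OG, at least 14.2-fold lower. Both probe sets were near or under background on SB-OG and far above it on control-OG. DSC2, the desmocollin of the same tissues, had 73.9 on SB-OG and 392 on control-OG and was 5.31-fold lower (-2.41). Its other probe sets were at 19.3 and 77.2, at 9.82 and 38.8, and at 1.42 and 10.8 on SB-OG and control-OG in each case, the last under background on both arrays. Of the 3 probe sets above background on control-OG, 2 were thus lower by 2-fold or more and 1 by at least 1.41-fold. DSC2 had the smallest difference of the 7 genes, 2.33 from DSG2 on the log2 scale.

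The plaque proteins divided. DSP, the plakin that links the plaque to the filaments, had 52.3 on SB-OG and 497 on control-OG, a 9.50-fold lower value (-3.25) from its only probe set. PKP2, the plakophilin of simple epithelia and heart, had 20.8 on SB-OG and 432 on control-OG, at least 15.7-fold lower (-3.97). Its other probe set gave 1.31 on SB-OG and 142 on control-OG, at least 5.15-fold lower. Both PKP2 probe sets were under background on SB-OG. DSP was above it there, at 10.5% of its control-OG value, but under the level of 77.3 at percentile 99, as were DSG2 and DSC2.

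JUP, plakoglobin, is shared by desmosomes and adherens junctions, since it can bind classical cadherins as well. It had 220 on SB-OG and 261 on control-OG, a difference of -0.25 that is smaller than the SD between probe sets and turns to 0.23 when the arrays are scaled on the hybridisation controls. JUP and DSP, which bind each other in the plaque, lay 3.003 apart. PKP4, also called p0071, is a relative of the plakophilins and of p120 catenin that is found at adherens junctions as well as desmosomes. It had 773 on SB-OG and 215 on control-OG, a 3.59-fold higher value (1.84).

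The other probe sets of PKP4 showed how far that difference holds across the transcript. One gave 288 on SB-OG and 91.2 on control-OG (1.66) and another 346 on SB-OG and 72.9 on control-OG (2.25). A further one gave 146 on SB-OG and 0.745 on control-OG, at least 4.49-fold higher. The last was near background on both arrays, at 29.5 on SB-OG and 23.3 on control-OG. PKP4 was therefore at least 2-fold higher by 4 of its 5 probe sets, and PKP2 and PKP4 lay 5.81 apart on the log2 scale.

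Taking all 23 probe sets of the members, 18 were above background on at least 1 array, 10 of them lower in SB-OG by 2-fold or more and 4 higher, all 4 for PKP4. Of all probe sets with a single gene that were above background, 12.0% were at least 2-fold lower and 12.7% at least 2-fold higher. No member had a probe set past 2-fold in each direction. Of the 18, 2 were above background on SB-OG only and 6 on control-OG only.

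Ordered by difference, KRT19 came first from the lowest among the 12499 genes, KRT8 came 12th, KRT18 35th, DSG2 39th, PKP2 95th, DSP 170th and DSC2 349th. JUP and KRT7 were in the middle, with 37.5% and 47.7% of genes below them. PKP4 was 624th from the highest. The places of KRT19 and PKP2 rest on lower bounds. KRT18 and DSG2 lay within the SD between probe sets of each other. How far PKP2 lay from its neighbours in this order is not known, since without a floor PKP2 was at -4.38 and DSG2 at -4.74.

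**Figure D2:**
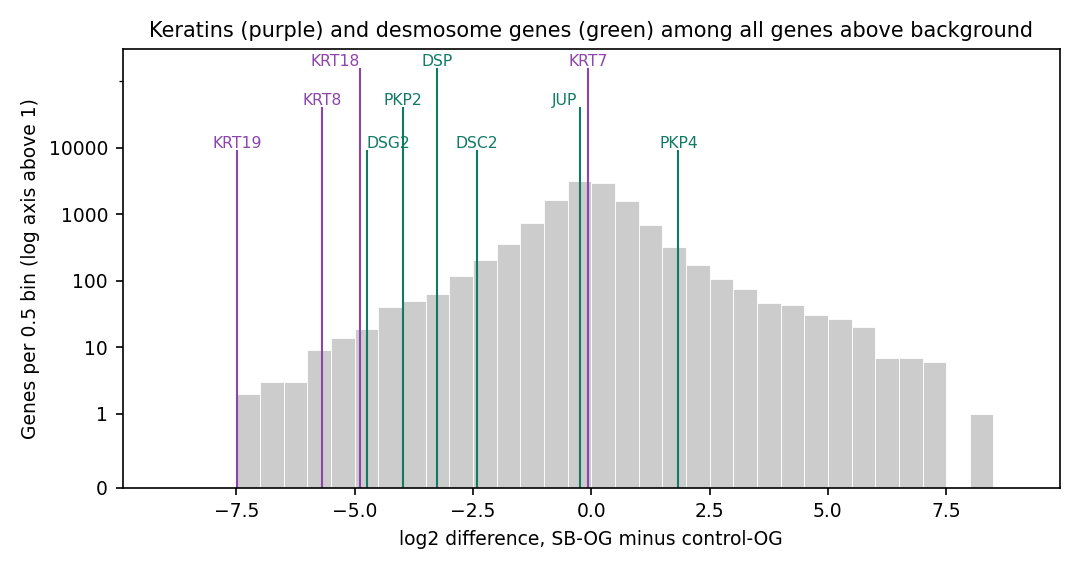
Number of genes in each bin of log2 difference, SB-OG minus control-OG, for the 12499 genes above background (grey bars, log axis), with the 10 members marked as vertical lines whose height has no meaning. KRT19 stands at -7.48, at the low end of all genes, JUP and KRT7 stand near 0, and PKP4 stands at 1.84.

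The sequence before the start of the gene is shown for 4 members that were lower together, KRT8, DSG2, DSC2 and DSP, and for PKP4, which was higher. RefSeq promoter windows on GRCh38.p14 matched 6 of the 10 members. Each line gives the 250 bases before a start annotated for the gene, with capitals marking CAGGTG on either strand. These are the E-box letters that repressors of the SNAIL and ZEB families can bind. A single window per gene was used, and sequence before any other start of a gene was not read. The windows are KRT8 chr12:52926470-52926719 on the minus strand, DSG2 chr18:31497927-31498176 on the plus strand, DSC2 chr18:31102422-31102671 on the minus strand, DSP chr6:7541421-7541670 on the plus strand, and PKP4 chr2:158456702-158456951 on the plus strand.
KRT8: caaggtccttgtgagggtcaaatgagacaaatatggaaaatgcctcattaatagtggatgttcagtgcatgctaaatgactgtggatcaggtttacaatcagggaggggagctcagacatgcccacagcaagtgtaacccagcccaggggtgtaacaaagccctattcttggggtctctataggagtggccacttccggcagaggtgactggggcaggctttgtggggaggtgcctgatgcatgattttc
DSG2: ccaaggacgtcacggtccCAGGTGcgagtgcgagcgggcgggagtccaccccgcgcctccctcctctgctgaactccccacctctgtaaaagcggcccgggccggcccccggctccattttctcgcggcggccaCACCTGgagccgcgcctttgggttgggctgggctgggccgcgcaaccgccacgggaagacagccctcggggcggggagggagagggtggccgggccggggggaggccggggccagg
DSC2: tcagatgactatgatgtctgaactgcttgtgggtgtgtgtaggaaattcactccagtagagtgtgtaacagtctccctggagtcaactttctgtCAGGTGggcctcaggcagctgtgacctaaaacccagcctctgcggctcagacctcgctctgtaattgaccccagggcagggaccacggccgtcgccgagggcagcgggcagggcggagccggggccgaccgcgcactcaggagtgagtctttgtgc
DSP: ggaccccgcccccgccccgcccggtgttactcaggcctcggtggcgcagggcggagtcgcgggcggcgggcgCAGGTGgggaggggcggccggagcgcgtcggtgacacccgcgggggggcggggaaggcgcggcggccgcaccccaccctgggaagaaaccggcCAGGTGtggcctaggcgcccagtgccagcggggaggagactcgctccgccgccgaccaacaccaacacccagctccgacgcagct
PKP4: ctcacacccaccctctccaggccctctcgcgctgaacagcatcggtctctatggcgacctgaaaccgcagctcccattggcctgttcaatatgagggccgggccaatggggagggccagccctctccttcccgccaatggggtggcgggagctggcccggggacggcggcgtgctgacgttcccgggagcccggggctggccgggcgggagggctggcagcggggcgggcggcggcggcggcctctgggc

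CAGGTG was present in 3 of the 6 matched windows, those of DSG2, DSC2 and DSP, and in 17.5% of 27305 windows of the same length. It was not in the single windows read for KRT8, PKP4 and JUP. The GC box GGGCGG was present in 5 of 6 (42.3% of all windows), GCCNNNGGC, to which AP-2 factors can bind, in 4 of 6 (19.7%), and CAGAC, the core letters of a SMAD site, in 2 of 6 (37.8%). None of the 6 held TATAAA (11.1%), TGANTCA, the letters of an AP-1 site (6.6%), or GGAATG, those of a TEAD site (11.9%). Both strands were searched and overlaps between motifs were allowed. The shares depend on base composition, which was 78.0% G and C before DSP, 75.2% before DSG2, 73.2% before PKP4, 59.6% before DSC2 and 50.4% before KRT8, with a median of 58.0% over all windows. A match describes letters and does not show binding.

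Among 39 other keratin genes on the array, 4 exceeded background on either array, with none lower in SB-OG by 2-fold or more and 1 higher. KRT10, a type I keratin of upper epidermis that is also detected in many cultured cells, had 1559 on SB-OG and 1697 on control-OG (-0.12), and its other probe sets were at 0.00 and 0.53. KRT40, a hair keratin, had 86.0 on SB-OG and 11.1 on control-OG, at least 2.64-fold higher, while its other probe set was under background on both arrays. With the mean of probe sets, only specific probe sets or the higher background level, no other keratin was 2-fold higher. KRT9 and KRT80 were near background, at 36.5 and 41.3 on SB-OG against 31.1 and 6.33 on control-OG. Keratins of stratified epithelium such as KRT5, KRT14, KRT1 and KRT13 were under background on both arrays. Among the keratins that were read, the lower signals were thus those of KRT8, KRT18 and KRT19. Some keratins, such as KRT6A, KRT17 and KRT81, had no probe set of their own and were not read. The median over the 4 genes was 0.25, and 1.47 without a floor.

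Of 11 other desmosome genes, 4 were above background, with 2 lower in SB-OG by 2-fold or more and none higher (median -1.77). DSC3, a desmocollin best known from stratified epithelia, had 46.7 on SB-OG and 774 on control-OG, a 16.6-fold lower value. Its other probe sets gave 43.6 on SB-OG and 785 on control-OG, and 11.2 on SB-OG and 147 on control-OG. PERP, a membrane protein of desmosomes and a p53 target, had 51.5 on SB-OG and 1908 on control-OG, a 37.1-fold lower value, with another probe set at least 11.6-fold lower. PERP was not above background by the mean of its probe sets. DSC3 and PERP, like DSG2, were thus close to background on SB-OG and bright on control-OG.

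PPL, periplakin, had 122 on SB-OG and 66.7 on control-OG (0.87), and PKP3, a plakophilin of most epithelia, had 46.7 on SB-OG and 29.3 on control-OG, near background. The desmogleins DSG1, DSG3 and DSG4, the desmocollin DSC1, the plakophilin PKP1, and EVPL and CDSN were under background on both arrays. In the chromosome 18 cluster that holds the desmosomal cadherin genes, 3 of 7 were above background, DSC3, DSC2 and DSG2, all lower in SB-OG. DSC3 and DSC2 are neighbours there, and DSG2 lies at the other end.

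**Figure D3:**
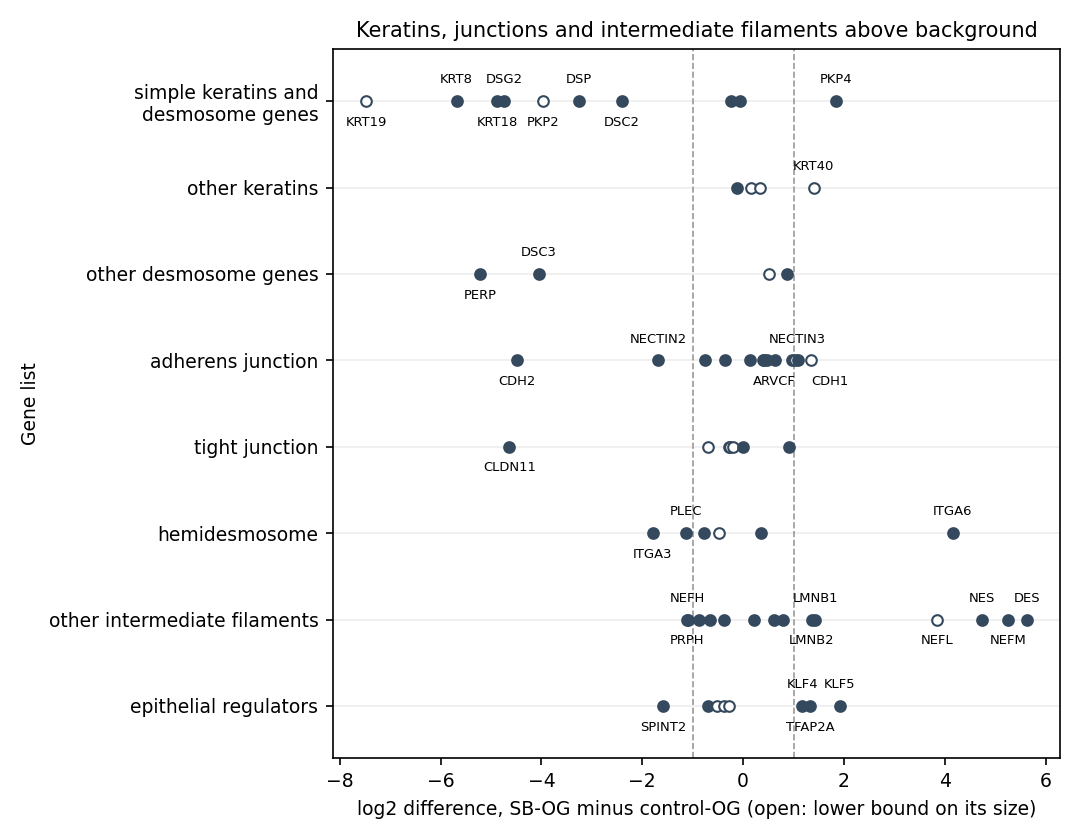
log2 difference, SB-OG minus control-OG, of each gene above background in 8 gene lists, with filled points for genes measured on both arrays, open points for lower bounds, and dashed lines at 2-fold. Genes past 2-fold are named. Simple keratins and desmosome genes spread from -7.48 to 1.84, while other intermediate filament genes reach 5.62 for DES.

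Intermediate filament genes other than keratins had another pattern. Of 14 above background, 6 were higher in SB-OG by 2-fold or more and 2 lower (median 0.70), or 8 higher and none lower when scaled on the hybridisation controls. DES, desmin, the filament of muscle, had 2550 on SB-OG and 51.7 on control-OG (49.3-fold higher), and NES, nestin, of progenitor cells, was 26.6-fold higher. The neurofilament genes NEFM and NEFL were 38.3-fold and at least 14.4-fold higher. The 2 lower genes were NEFH, another neurofilament gene, and PRPH. NEFH was 2.14-fold lower, with its other probe set at -0.3, and PRPH was at least 2.15-fold lower. VIM, vimentin, the filament of mesenchymal cells, had 10378 on SB-OG and 16414 on control-OG (-0.66), so both cultures had a bright vimentin signal.

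Adherens junction genes include catenins, some of which are relatives of JUP and PKP4. Of the adherens junction genes, 13 of 14 were above background, with 2 at least 2-fold lower and 3 higher (median 0.41, and -0.36 with only probe sets specific by name). CDH2, N-cadherin, had 166 on SB-OG and 3704 on control-OG, a 22.4-fold lower value, and CDH1, E-cadherin, had 82.8 on SB-OG and 26.9 on control-OG. The other CDH1 probe set had 6.55 on SB-OG and 19.98 on control-OG, under background on both, and with the higher background level or only specific probe sets NECTIN3 alone of the 3 stayed 2-fold higher. CTNNB1, β-catenin, the closest relative of JUP, had 739 on SB-OG and 477 on control-OG (0.63). Nectin genes differed among themselves, with NECTIN2 3.21-fold lower by the probe set that represents it, at -2.32 and -2.73 by a pair of others and at 0.05 by the remaining one, and NECTIN3 2.12-fold higher.

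Tight junction genes were above background for 7 of 14, with 1 at least 2-fold lower and none higher (median -0.26, turning to 0.21 when scaled on the hybridisation controls). That gene was CLDN11, a claudin of myelin and testis, with 129 on SB-OG and 3198 on control-OG. Of 6 measured hemidesmosome genes, 2 were lower and 1 higher (median -0.63, and 0.21 with only probe sets specific by name). PLEC, plectin, which links keratin filaments to hemidesmosomes, was 2.20-fold lower, ITGA3 3.46-fold lower and ITGA6 17.8-fold higher. PLEC was within 2-fold when scaled on the hybridisation controls.

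Epithelial regulators were above background for 8 of 16 genes, with 1 at least 2-fold lower and 3 higher (median -0.33, turning to 0.14 when scaled on the hybridisation controls). SPINT2, a protease inhibitor of epithelial surfaces, was 2.99-fold lower, with an SB-OG value of 27.7 at the background level, and this call ended with the higher background level. KLF5, KLF4 and TFAP2A were 3.77-fold, 2.26-fold and 2.51-fold higher, with another TFAP2A probe set at 0.16. ELF3, ST14 and OVOL2 were above background on control-OG only, with 5.15, 12.4 and 16.2 on SB-OG against 39.7, 36.0 and 33.5 on control-OG. EPCAM, GRHL1, GRHL2, GRHL3, ESRP1, EHF, OVOL1 and SPINT1 were under background on both arrays.

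Markers of other cells that use these genes were read on the same arrays. Mesothelium, the lining of body cavities, carries simple keratins, and of 12 mesothelial markers on the array 6 exceeded background, 4 of them lower in SB-OG by 2-fold or more and none higher. Their summed intensity, to which brighter probe sets add more, was 190 on SB-OG and 5189 on control-OG, of which PDPN gave 61.0 and 3604. PDPN, LRRN4, BNC1 and CALB2 were the lower genes, by 59.1-fold, at least 20.9-fold, 13.5-fold and at least 4.56-fold. Another BNC1 probe set was 3.05-fold lower. The CALB2 call ended with only specific probe sets or with the higher background level. The 6 markers MSLN, UPK3B, WT1, KLK11, MUC16 and PRG4 were under background on both arrays. Of endoderm and liver markers, 4 of 10 were above background (summed 91.4 on SB-OG and 754 on control-OG), with GATA6 at least 21.8-fold and APOA1 2.26-fold lower. APOA1 was within 2-fold when scaled on the hybridisation controls. Its call also ended with the mean of probe sets, only specific probe sets, the higher background level or a pseudocount of 16. AFP and GATA4 were above background on control-OG only, and FOXA1, FOXA2, SOX17, CDX2, TTR and ALB were under it on both arrays. The probe set that represents GATA4 was at least 1.42-fold lower, and others were at least 1.72-fold and at least 3.34-fold lower.

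Of trophoblast markers, 6 of 12 were above background (summed 1740 on SB-OG and 1037 on control-OG). Of these sums TEAD4 gave 1149 and 164, and HSD3B1 1.37 and 515. HSD3B1 was at least 18.7-fold lower, TEAD4 7.02-fold and TFAP2A 2.51-fold higher. The other HSD3B1 probe set was under background on both arrays, and HSD3B1 was not 2-fold lower with the mean of probe sets. The markers CGA, CYP19A1, ELF5, GATA3, GCM1 and INSL4 were under background on both arrays. Of cardiac muscle markers, 3 of 11 were above background (summed 658 on SB-OG and 1274 on control-OG), of which TMEM43, a membrane protein, gave 588 and 1208. TMEM43 was 2.05-fold lower, with other probe sets at -0.97 and 0.15, and within 2-fold with centring, scaling on the hybridisation controls or the mean of probe sets. MYL2, MYL7, MYH6, TBX5 and NKX2-5 were among those under background. Skeletal muscle markers were above background for 14 of 15, of which 13 were at least 2-fold higher (summed 62193 on SB-OG and 497 on control-OG). The part of these cell types in the keratin and desmosome differences was not tested.

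As to the labelled outgrowths themselves, all 16 mesenchymal markers were above background, 8 lower by 2-fold or more and 2 higher in SB-OG (4 lower and 3 higher when scaled on the hybridisation controls), and of 7 pluripotency markers 2 exceeded background, with NANOG under it on both arrays. CDH2, THY1 and TWIST1 were 22.4-fold, 14.6-fold and 3.45-fold lower, and ZEB2 was 7.74-fold higher. Of the other SNAIL and ZEB genes in the list, SNAI2 was 3.09-fold lower and SNAI1 at least 1.41-fold lower. ZEB1 was at -0.28, with other probe sets from -0.38 to 0.97. The part of these factors in the member differences was not tested. SOX2 was at least 4.52-fold higher, with another probe set at -0.07. The arrays had median intensities of 21.8 on SB-OG and 22.6 on control-OG over 54675 probe sets each, and precision is limited throughout by having 1 array a condition.

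The members were read again under other scalings, probe set choices and floors. DSG2 ranged from -4.80 to -3.78, DSP from -3.34 to -2.68, PKP2 from -4.38 to -2.48 and DSC2 from -2.51 to -1.11, all lower in SB-OG. PKP4 ranged from 1.77 to 2.63, higher throughout. JUP and KRT7 took either sign, since their differences were small.

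**Figure D4:**
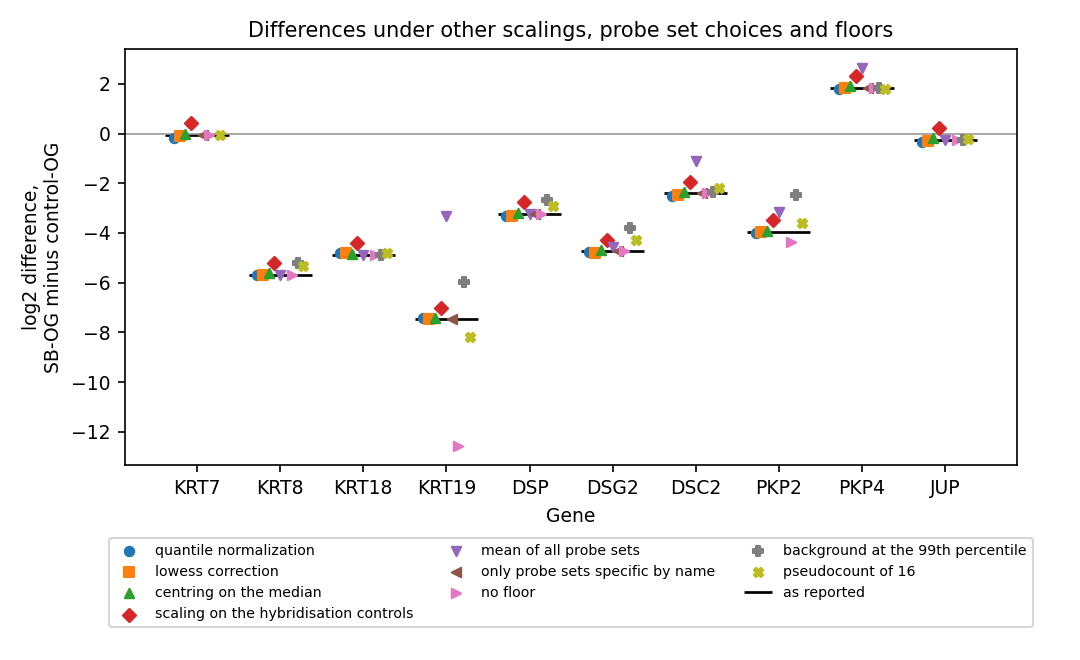
log2 difference, SB-OG minus control-OG, of each of the 10 genes as reported (black bar) and under other scalings, probe set choices and floors (symbols). KRT19 ranges from -12.56 to -3.33, and JUP and KRT7 are on either side of 0, while the other 8 genes keep their sign under every alternative that gave a value.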

How the data were processed

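Each condition was measured on 1 Affymetrix array, with biotin-labelled RNA of 3 mixed samples, per the labels' protocols. The authors deposited an intensity for each probe set on a linear scale. The program used to summarise probes was not given in the sources used here. A mean that leaves out 2% of probe sets at either end was 150.02 for each array, which points to scaling to a common target before deposit, so the total amount of RNA per cell is not visible.

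Gene names came from the platform annotation, with symbols updated by gene ID, and only the 41091 probe sets with 1 gene were used. The background level was set at percentile 95 among 213 probe sets of olfactory receptor, bitter taste receptor, keratin-associated protein, β-defensin and late cornified envelope genes. Log2 medians differed by less than 0.1, so the arrays were not rescaled. No test was made, since n = 1 per condition. The members and gene lists were chosen with earlier results of these data known. All probe sets of the members are given, and from each other list up to 4 genes with the greatest difference past 2-fold. NEFH, PRPH and SNAI2, genes within 2-fold and genes under background were named after their values were seen. Alternatives were quantile, lowess (span 0.4), median and hybridisation control scaling, other choices of probe set, floor and pseudocount (16), and a 3-fold threshold. The difference calculation was tested on simulated arrays. Python 3.11.15, numpy 2.4.6, pandas 2.3.3 and statsmodels 0.14.6 were used.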

Additional observations from a re-analysis of the deposited data

How the results depend on the processing

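The count of 7 genes at least 2-fold lower and 1 at least 2-fold higher held under quantile normalization, lowess correction, centring, scaling on the hybridisation controls, the mean of all probe sets, a pseudocount of 16, a background level at percentile 99, no floor and a 3-fold threshold. With only probe sets specific by name, 4 of 6 members above background were at least 2-fold lower, beside 1192 of 9449 genes. KRT8, KRT18, PKP2 and JUP have no such probe set. The median over the members was -3.13 when scaled on the hybridisation controls, -2.83 with only specific probe sets and -2.68 with the higher background level. KRT19 ranged from -12.56 without a floor to -3.33 with the mean of its probe sets, and DSC2 was at -1.11 with that mean. Scaling on the hybridisation controls moved the median of all genes to 0.46 and made KRT7 0.41 and JUP 0.23; 906 genes were then at least 2-fold lower and 3045 higher, so that 77.1% of genes past 2-fold were higher, against 48.9% as reported. Relative to that shift KRT7 and JUP remained at or below the median of all genes. At 3-fold, 795 genes were lower and 791 higher. No paired analysis was possible because each condition had 1 array, and for the same reason no replicate could be left out.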

Other observations

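The genes that lie next to the members on their chromosomes were read as well. Of 18 neighbouring protein-coding genes that are not members, 15 had a probe set of their own and 8 were above background. Of these 8, 2 were lower by 2-fold or more in SB-OG and none higher, beside 13.0% lower and 12.4% higher of all genes. KRT8 and KRT18 are direct neighbours on chromosome 12, and EIF4B, a translation initiation factor gene on the far side of KRT18, had 2753 on SB-OG and 2695 on control-OG (0.03). RIOK1 and SNRNP48, on either side of DSP on chromosome 6, were at 0.39 and 0.68, and YARS2, beside PKP2, was at -0.51. The 2 lower neighbours were DSC3, beside DSC2, and P3H4, a collagen modification gene beside JUP on chromosome 17. DSC3 was already counted among the other desmosome genes. P3H4 had 295 on SB-OG and 1047 on control-OG (-1.83). The neighbours were chosen by position and not by value.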
